A study of Homo sapiens with 64 samples.

Results

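Budesonide and formoterol were set directly against each other after 6 h in BEAS-2B cells, a human line immortalised from bronchial epithelium, to find the genes that the drugs drive apart. Budesonide is an inhaled glucocorticoid and was given at 100 nM, formoterol is a long-acting agonist of the beta2-adrenoceptor and was given at 10 nM, so the doses differ as well as the drugs. The comparison used 8 of the 64 Affymetrix arrays of the series, the 4 labelled as budesonide alone and the 4 labelled as formoterol alone at 6 h. A further 4 arrays of cells given both drugs and 4 of untreated cells, both at 6 h, gave the context. All cells had been kept without serum overnight before the drugs were added, so the lack of serum is shared by every group. The other arrays hold the same 4 treatments at 1, 2 and 18 h. The labels describe the replicates as independent determinations, and p-values here rest on the spread among such samples of a single cell line.

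The glucocorticoid receptor, encoded by NR3C1, is a ligand-activated transcription factor that moves to the nucleus, switches on genes for metabolic, anti-inflammatory and feedback proteins and lowers the output of many inflammatory genes. The beta2-adrenoceptor couples to adenylyl cyclase, and the cyclic AMP it makes activates protein kinase A, which phosphorylates the transcription factor CREB at cAMP response elements. Phosphodiesterases break cyclic AMP down, and several of their genes are themselves targets of CREB. In airway epithelium the drugs are combined in the inhalers used for asthma.

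Levels are log2 values per probe set, as deposited, and a difference of 1 is a 2-fold change. A level compares arrays for one gene and not one gene with another, since probe sets differ in brightness. Differences are budesonide minus formoterol ± SE from limma with 4 arrays a group, and a gene is called where the Benjamini-Hochberg adjusted p over 18132 genes was under 0.05. Group means are given ± SD with n = 4. A group mean under 3.02, below which the dimmest quartile of values lay, was not told from background, and a difference that rests on it is a lower bound. In bulk RNA, a lower level in every cell and fewer cells that carry the transcript cannot be told apart.

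Array medians of budesonide, formoterol and untreated cells at 6 h lay between 4.88 and 4.94. The beta-actin probe sets at the 3' and 5' ends, whose difference is a sign of RNA quality, differed by 1.94, 1.06, 0.81 and 0.94 with budesonide, by 1.90, 1.70, 0.94 and 0.98 with formoterol and by 2.21, 1.24, 0.81 and 0.78 in untreated cells, so replicate 1 was highest in each group and formoterol replicate 2 was also high. Its part in the results was not tested beyond leaving arrays out in turn. Of the epithelial markers, 3 of 6 reached the median of all probe sets in a 6 h group and 1 stayed under the lower quartile in all of them. The differentiated airway markers were mostly dim, with 1 of 5 reaching the median, as were the leukocyte markers with 2 of 7 and the endothelial markers with 0 of 6. By limma none of these leukocyte or differentiated airway markers was called between the drugs, and 0 passed at an unadjusted p under 0.05. KRT7, a simple-epithelium keratin, was called higher with budesonide (0.76), as was the endothelial receptor gene KDR (0.71), and COL3A1, a fibrillar collagen gene on the fibroblast list, was called lower (-1.65). Summed over the 6 fibroblast markers, 3 of them under the lower quartile in every 6 h group, the level per array was 27.2 to 28.2 with budesonide, 29.3 to 30.6 with formoterol and 27.8 to 29.9 in untreated cells. Over the 6 endothelial markers it was 22.3 to 23.4, 20.2 to 22.3 and 20.7 to 22.2 in the same order. The part of either list in the results was not tested.

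The drugs differed in 3044 genes, which is 16.8% of those tested. Of these, 1297 genes (7.15%) were higher with budesonide and 1747 (9.63%) were lower, and the median difference over all genes was 0.04. Differences of at least 2-fold were called in 425 genes (2.34%), 192 of them (1.06%) higher with budesonide and 233 (1.29%) lower. For context, budesonide alone differed from untreated cells in 2583 genes (14.2%), 1110 higher (6.12%) and 1473 lower (8.12%), and 398 (2.2%) differed by at least 2-fold. Formoterol alone differed in 873 (4.81%), 500 higher (2.76%) and 373 lower (2.06%), and 104 (0.574%) by at least 2-fold. When the probe sets of each gene were averaged, the 2-fold counts were 277 between the drugs, 248 with budesonide and 61 with formoterol. The same 4 untreated arrays enter the counts of both drugs. The plot of all genes shows the 2-fold differences against the level, and few of them were in dim genes. With the fit limited to the 10998 genes that reached 4.90 in some group, 408 were called at 2-fold or more. In 423 of the 425 genes no array of one drug overlapped an array of the other. The 425 were chosen on these same arrays, so the lack of overlap served as a filter and is not a result. Of the 423, 397 also reached the median level of 4.90 with the drug that gave the higher mean. The genes described first come from these 397, as the 12 highest and 12 lowest differences. The least of the 12 was 3.16 for MT1X, ahead of 2.97 for SLC38A4 just outside, and on the other side -2.97 for NCKAP5, next to -2.97 for SMOC1.

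**Figure D1:**
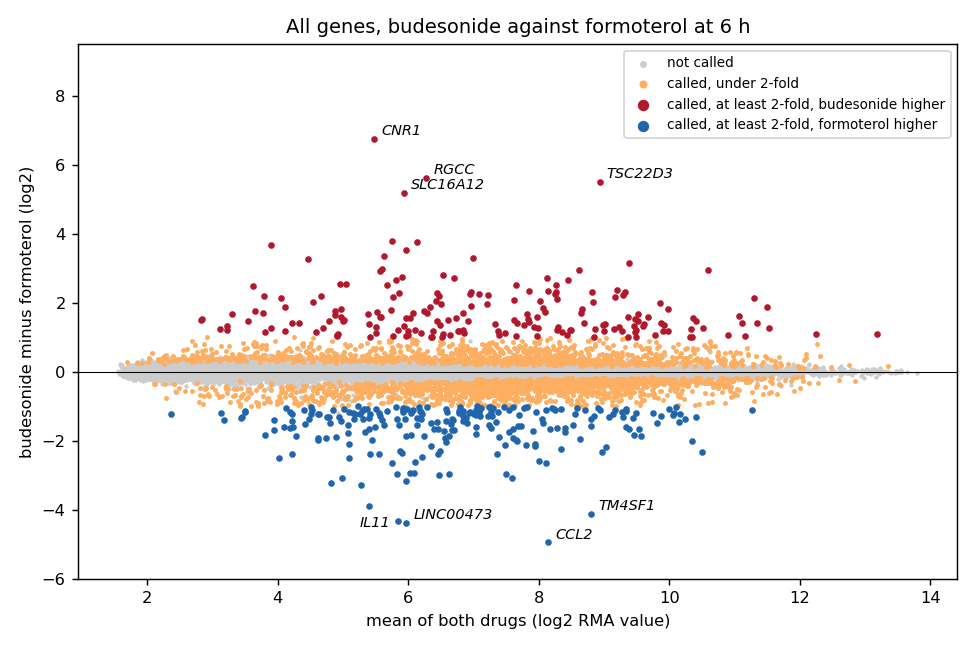
Difference between budesonide and formoterol at 6 h (y axis, log2, budesonide minus formoterol) against the mean of the budesonide and formoterol levels (x axis, log2 RMA value) for 18132 genes, 1 point a gene. Red and blue points are the 192 and 233 genes called at 2-fold or more, and CNR1 and CCL2 lie farthest from 0 at 6.74 and -4.95.

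The genes that stood highest with budesonide relative to formoterol were led by CNR1, RGCC and TSC22D3. CNR1, the cannabinoid CB1 receptor gene, had levels of 8.81, 8.85, 8.82 and 8.89 with budesonide, against 1.93, 2.03, 2.26 and 2.17 with formoterol and 1.98, 2.13, 2.09 and 2.004 in untreated cells. Formoterol and untreated cells were not told from background, so the difference of 6.74 ± 0.16 (adjusted p 3.71e-41) is a lower bound, at least 107-fold. RGCC, which encodes a regulator of cell cycle kinases, had 9.23, 9.06, 8.73 and 9.31 with budesonide, 3.60, 3.37, 3.70 and 3.18 with formoterol and 3.89, 3.47, 3.98 and 3.64 in untreated cells. No budesonide array overlapped the others, formoterol and untreated arrays did, and the difference was 5.62 ± 0.18 (adjusted p 3.81e-34), or 49.2-fold. TSC22D3 encodes GILZ, a glucocorticoid-induced leucine zipper protein that restrains inflammatory signalling. Its levels were 11.74, 11.66, 11.55 and 11.80 with budesonide, 6.12, 6.15, 6.10 and 6.35 with formoterol and 6.44, 6.46, 6.47 and 6.59 in untreated cells. That is a difference of 5.51 ± 0.11 (adjusted p 1.4e-45), and every formoterol array lay below every untreated array, although formoterol's change of -0.31 ± 0.11 was not called (adjusted p 0.083).

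Several of the other genes high with budesonide serve transport, the cytoskeleton and signalling. SLC16A12, a monocarboxylate transporter gene, had 8.76, 8.53, 8.42 and 8.39 with budesonide, 3.59, 3.61, 2.89 and 3.29 with formoterol and 4.82, 4.71, 4.52 and 4.11 in untreated cells, with the untreated arrays lying between the drugs without overlap. MAP2, which encodes a protein that binds microtubules, averaged 7.65 ± 0.13 with budesonide, 3.86 ± 0.12 with formoterol and 3.87 ± 0.18 in untreated cells. CACNA2D3, an auxiliary subunit of voltage-gated calcium channels, averaged 8.02 ± 0.03, 4.25 ± 0.32 and 3.47 ± 0.16 in the same order. Its other probe set differed by only 0.21 between the drugs. RERG, a small GTPase gene, averaged 5.75 ± 0.36 with budesonide and was not told from background with formoterol (2.06 ± 0.33) or in untreated cells (2.12 ± 0.32). FGD4, an activator of the GTPase CDC42, averaged 7.73 ± 0.30, 4.21 ± 0.50 and 4.04 ± 0.27 with budesonide, with formoterol and in untreated cells. The differences between the drugs in these 5 genes were 5.18 ± 0.19, 3.80 ± 0.16, 3.77 ± 0.18, at least 3.68 ± 0.18 and 3.53 ± 0.31, with adjusted p of 2.11e-14 or less.

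The remaining 4 of the 12 were PLA2G4A, ANKRD1, PDK4 and MT1X. PLA2G4A encodes cytosolic phospholipase A2, which frees arachidonic acid for prostaglandin synthesis, and averaged 7.32 ± 0.11 with budesonide, 3.95 ± 0.17 with formoterol and 3.75 ± 0.33 in untreated cells. PDK4, a kinase that turns off pyruvate dehydrogenase in fasting, had 6.79, 6.51, 5.40 and 5.68 with budesonide, against 2.56, 3.45, 2.25 and 3.02 with formoterol and 2.97, 2.79, 2.82 and 2.25 in untreated cells. Its 2 lower budesonide arrays still lay well clear of the formoterol arrays, and the difference was at least 3.27 ± 0.39 (adjusted p 7.21e-10). MT1X, a metallothionein gene, averaged 10.96 ± 0.22 with budesonide, 7.81 ± 0.23 with formoterol and 7.69 ± 0.20 in untreated cells, a difference of 3.16 ± 0.15 (adjusted p 9.62e-26).

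The genes that stood lowest with budesonide relative to formoterol were led by CCL2, LINC00473 and IL11. CCL2, the chemokine that draws monocytes, had 5.61, 5.92, 5.37 and 5.78 with budesonide, 10.70, 10.42, 10.87 and 10.47 with formoterol and 8.77, 9.24, 8.80 and 9.02 in untreated cells. The 3 groups were fully separate, with untreated cells in the middle, and the drugs differed by -4.95 ± 0.16 (adjusted p 3.51e-34), or 30.9-fold. LINC00473, a long non-coding RNA known as a CREB target, had 3.60, 3.74, 4.04 and 3.74 with budesonide, 7.98, 8.19, 8.25 and 8.20 with formoterol and 4.17, 3.87, 4.27 and 4.69 in untreated cells. Only the formoterol arrays stood apart here, and the difference was -4.38 ± 0.20 (adjusted p 8.26e-27). IL11, a cytokine of the IL-6 family tied to fibrosis, had 3.56, 3.80, 3.68 and 3.64 with budesonide, 7.95, 7.63, 8.24 and 8.20 with formoterol and 5.58, 5.64, 5.31 and 5.70 in untreated cells. The groups were again fully separate, with a difference of -4.33 ± 0.20 (adjusted p 3.26e-26), or 20.2-fold.

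**Figure D2:**
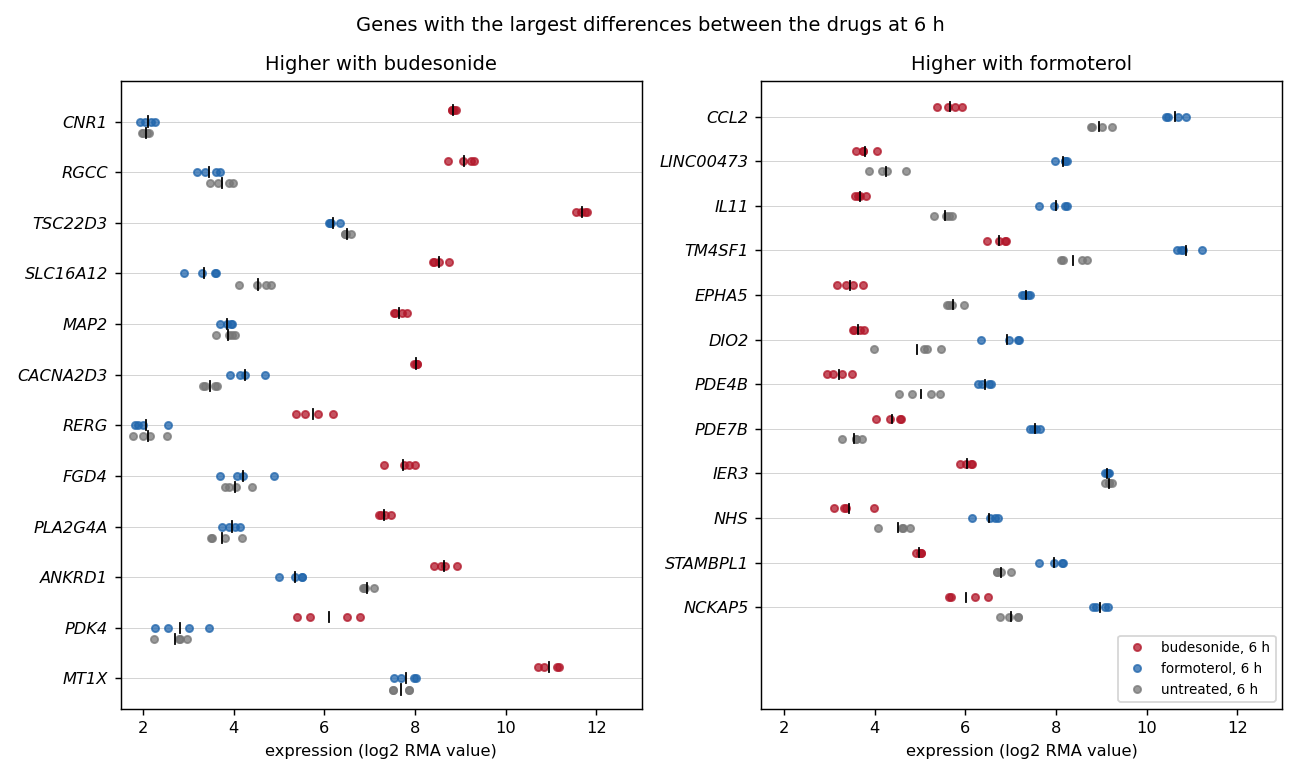
Log2 RMA level (x axis) of the 12 genes with the highest and the 12 with the lowest difference between the drugs at 6 h, each point 1 array and each bar a group mean. The choice of the 24 genes required that budesonide and formoterol arrays do not overlap. Untreated cells lie near formoterol for CNR1 and IER3 and near budesonide for LINC00473.

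TM4SF1, a surface protein of the tetraspanin-like family, averaged 6.75 ± 0.20 with budesonide, 10.87 ± 0.25 with formoterol and 8.38 ± 0.29 in untreated cells, a difference of -4.12 ± 0.20. Of its 4 probe sets 3 ran this way, and the differences ranged from -4.37 to 0.34. EPHA5, an ephrin receptor, averaged 3.45 ± 0.24, 7.34 ± 0.08 and 5.73 ± 0.17 in the same order. DIO2, the deiodinase that activates thyroid hormone, averaged 3.63 ± 0.12, 6.92 ± 0.39 and 4.93 ± 0.65, with untreated replicate 4 low at 3.99. IER3, an immediate early gene linked to cell survival, differed from these in that formoterol's change from untreated cells, -0.04 ± 0.13, was not called. Its arrays read 6.02, 6.14, 5.89 and 6.12 with budesonide, 9.08, 9.15, 9.13 and 9.17 with formoterol and 9.17, 9.23, 9.09 and 9.17 in untreated cells. The differences between the drugs were -3.89 ± 0.16 for EPHA5, -3.28 ± 0.22 for DIO2 and -3.09 ± 0.13 for IER3. NHS, the Nance-Horan syndrome gene, differed by -3.07 ± 0.20, but its other probe set by 0.04. STAMBPL1, a deubiquitinase gene, differed by -2.98 ± 0.12 and NCKAP5 by -2.97 ± 0.17.

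Both phosphodiesterases among these genes break down cyclic AMP. PDE4B had 3.08, 3.29, 2.95 and 3.496 with budesonide, 6.57, 6.36, 6.28 and 6.52 with formoterol and 5.45, 4.83, 4.54 and 5.24 in untreated cells, so the drugs lay on either side of untreated cells, -3.23 ± 0.22 apart (adjusted p 7.02e-19). PDE7B had 4.55, 4.59, 4.03 and 4.35 with budesonide, 7.56, 7.500, 7.44 and 7.66 with formoterol and 3.72, 3.58, 3.27 and 3.58 in untreated cells. Here both drugs gave higher levels than untreated cells, by 0.84 ± 0.17 with budesonide and 4.001 ± 0.17 with formoterol, and the drugs differed by -3.16 ± 0.17 (adjusted p 7.42e-24).

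The promoter of PDE7B is shown because it is the only one among these 24 genes in which the full cAMP response element TGACGTCA was found. The search covered 250 bases before to 50 after each gene's start in RefSeq promoters of GRCh38.p14, and 21 of the 24 genes had an entry. The site reads the same on both strands. In the PDE7B promoter, chr6:135851451-135851750 on the plus strand, it begins at position -155 from the start and stands in capitals.
PDE7B: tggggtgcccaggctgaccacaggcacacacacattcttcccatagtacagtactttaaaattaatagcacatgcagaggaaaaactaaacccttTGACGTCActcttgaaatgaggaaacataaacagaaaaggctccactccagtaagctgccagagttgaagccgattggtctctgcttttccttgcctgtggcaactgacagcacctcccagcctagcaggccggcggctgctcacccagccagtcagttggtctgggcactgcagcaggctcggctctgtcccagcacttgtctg

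The element occurred in 540 of all 27305 promoters (1.98%) and in 384 of the 14425 promoters of genes tested (2.66%). Among genes at least 2-fold higher with budesonide it stood in 2 of 164 promoters (1.22%), and among those at least 2-fold lower in 9 of 182 (4.95%). These shares are descriptions without a test, and a match is not a bound site. The 5 genes of these 11 that were also called higher with formoterol than in untreated cells are printed with the element in capitals and the bases around it, on the gene's own strand of GRCh38.p14. DUSP1 was higher with budesonide than with formoterol, and the other 4 were lower.
DUSP1: gcagggcgggTGACGTCAccgccccgtc
PDE7B: ctaaacccttTGACGTCActcttgaaat
KIAA1217: gtggtgggggTGACGTCAggactgcagt
MCAM: cccgccccccTGACGTCAgcccccggca
AVPI1: ctggggacTGACGTCAatgaaggggg
They lie at chr5:172771303-172771330, chr6:135851536-135851563, chr10:23694702-23694729, chr11:119317145-119317172 and chr10:97687466-97687491 in that order, PDE7B and KIAA1217 on the plus strand and the others on the minus strand. The differences between the drugs were 1.19, -3.16, -2.46, -1.15 and -1.05, and formoterol's changes from untreated cells were 0.84, 4.001, 0.73, 1.22 and 1.15. Budesonide's changes were 2.03, 0.84, -1.73, 0.07 and 0.10 in the same order. The call of DUSP1 against untreated cells was lost with the mean of its probe sets (0.59). The other 6 were DAAM2, higher with budesonide by 1.92, and KCTD8, EPHA2, ADAMTS6, MAPRE2 and ST3GAL5, which were lower, with differences of -1.86 to -1.002. Those lower ones were called lower with budesonide than in untreated cells (-2.10, -1.66, -1.52, -0.66 and -0.90 in that order). None of them was called with formoterol. The genes outside the 24 and outside the lists were named here after their values were seen. A full glucocorticoid response element, AGAACA and TGTTCT with any 3 bases between them, also reads the same on both strands and occurred in 1 of 27305 promoters (0.00366%) and in none of the genes tested.

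Genes on which the drugs acted in opposite directions were defined by a call against untreated cells with each drug. Of the 397 genes, 92 met this, 24 higher with budesonide and lower with formoterol than untreated cells, and 68 the other way. A further 37 moved in the same direction with both drugs, 233 were called with budesonide alone, 34 with formoterol alone and 1 with neither. The 397 were chosen for a difference of at least 2-fold between the drugs. That choice favours opposed genes and leaves out genes moved alike by similar amounts. The sizes of the classes are therefore a description of the 397 and not a result about all genes. These classes share the untreated arrays, and a call with one drug alone does not show that the other had no effect. Their sizes also moved with the processing and with a replicate block, as given at the end.

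ANKRD1, a muscle ankyrin repeat protein gene and a target of the co-activator YAP, was one of them. It had 8.92, 8.43, 8.58 and 8.65 with budesonide, 5.49, 5.003, 5.35 and 5.51 with formoterol and 6.86, 6.87, 7.09 and 6.90 in untreated cells, changes of 1.72 ± 0.20 and -1.59 ± 0.20 from untreated cells. With both drugs together the mean was 6.97 ± 0.30, next to the untreated mean of 6.93 ± 0.11. SLC16A12 rose by 3.98 ± 0.19 with budesonide and changed by -1.20 ± 0.19 with formoterol. FBXO32, the atrophy-linked ubiquitin ligase atrogin-1, averaged 7.93 ± 0.31, 5.13 ± 0.36 and 5.83 ± 0.23 with budesonide, with formoterol and in untreated cells. NEXN, an actin-binding protein gene, averaged 9.78 ± 0.18, 7.11 ± 0.27 and 8.07 ± 0.33, and its 7 probe sets all ran this way. LPIN1, a phosphatidate phosphatase that also aids fat oxidation genes, averaged 10.85 ± 0.11, 8.87 ± 0.06 and 9.71 ± 0.11.

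The other 3 of the 8 largest differences of this kind were GHR, ROR1 and ZNF385B. GHR, the growth hormone receptor gene, averaged 9.02 ± 0.20 with budesonide, 6.68 ± 0.09 with formoterol and 7.13 ± 0.15 in untreated cells. ROR1, a receptor for WNT5A, averaged 7.59 ± 0.40, 5.30 ± 0.32 and 6.12 ± 0.20, and ZNF385B, a zinc finger gene, averaged 8.35 ± 0.11, 6.11 ± 0.05 and 6.60 ± 0.29. The drugs differed by 2.34, 2.28 and 2.24, with SE of 0.19 or less. Formoterol's lowering of GHR (-0.45) lost its call without formoterol replicate 2 (-0.40), without all replicate 1 arrays (-0.41) or with the mean of its probe sets (-0.27). That of ZNF385B (-0.49) lost it without untreated replicate 1, without all replicate 1 arrays or with the mean of its probe sets (-0.38 each).

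In the other direction, budesonide lowered and formoterol raised CCL2 (by -3.29 and 1.66 from untreated cells), IL11 (-1.89 and 2.45), TM4SF1 (-1.63 and 2.48) and EPHA5 (-2.29 and 1.60). DIO2 changed by -1.30 with budesonide and 1.99 with formoterol, PDE4B by -1.81 and 1.42, NHS by -1.08 and 1.99 and STAMBPL1 by -1.81 and 1.17. These are the 8 largest differences of this kind. In each of them all 4 untreated arrays lay between the arrays of the drugs, which the choice of opposed genes made likely.

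**Figure D3:**
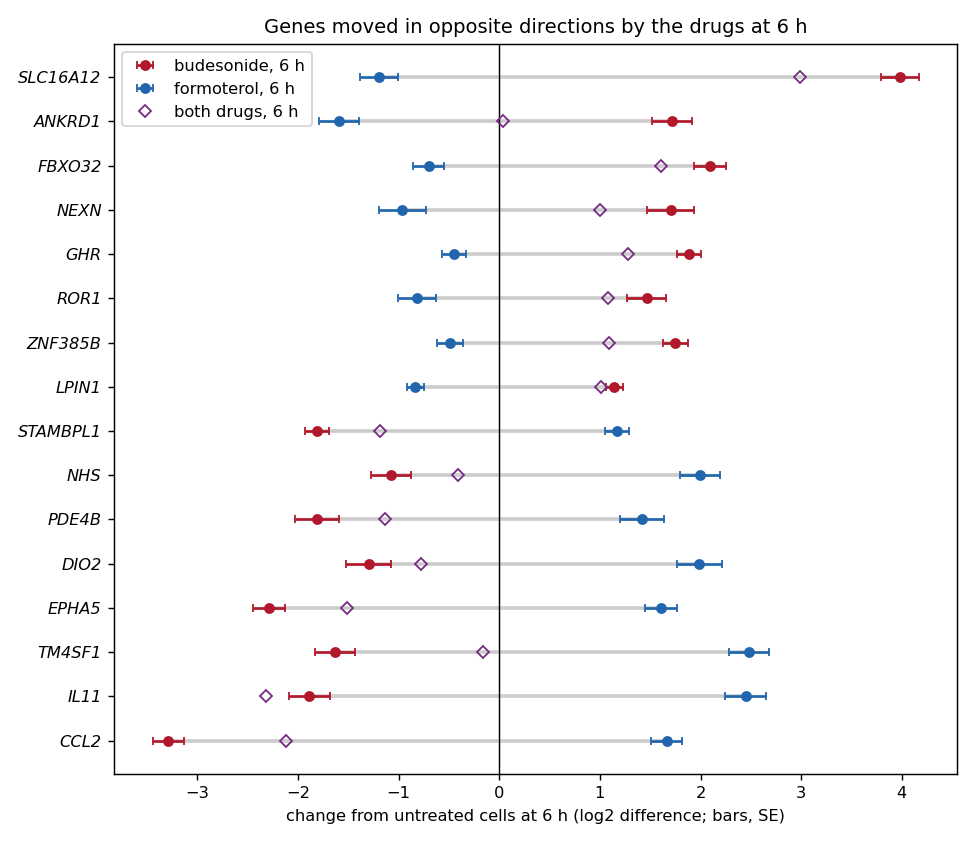
Change from untreated cells at 6 h (x axis, log2 difference, bars SE) with budesonide, with formoterol and with both drugs for the 16 genes with the largest opposed differences, 8 in each direction. With both drugs 15 of the 16 lie between the single drugs, and IL11 lies past budesonide.

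Where the drugs opposed each other, the level with both was mostly nearer to budesonide. Of the 92 opposed genes, 85 had a mean between the single drugs with both drugs given, 6 at or past budesonide and 1 past formoterol. By distance, 78 lay nearer to budesonide and 14 nearer to formoterol. The 6 at or past budesonide were EPS8, LPAR1, IER5L, NR3C1, MBP and IL11, and the one past formoterol was CTPS1, named for their place after their values were seen. CCL2 averaged 6.84 ± 0.13 with both drugs, a difference of 1.17 ± 0.16 from budesonide and -3.78 ± 0.16 from formoterol. IL11 averaged 3.24 ± 0.08, and its difference of -0.43 ± 0.20 from budesonide was not called (adjusted p 0.258). NCKAP5 averaged 7.97 ± 0.18, nearer to formoterol. Over all genes the combination differed from budesonide in 1218 (6.72%) and from formoterol in 2433 (13.4%), and each count shares the arrays of the combination with the other.

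Genes moved the same way by both drugs could still be driven apart. CACNA2D3 rose by 4.55 ± 0.18 with budesonide and by 0.78 ± 0.18 with formoterol, and the change with formoterol lost its call without formoterol replicate 2 (0.63) or all replicate 1 arrays (0.74) and with the mean of its probe sets (0.29). CDKN1C, which encodes the cell cycle inhibitor p57, averaged 8.20 ± 0.27 with budesonide, 6.22 ± 0.47 with formoterol and 5.07 ± 0.38 in untreated cells. FRZB, a secreted WNT antagonist, averaged 7.57 ± 0.22, 5.39 ± 0.16 and 4.82 ± 0.14. NLGN4X, a neuroligin, averaged 6.92 ± 0.20, 5.21 ± 0.23 and 4.79 ± 0.07, and RNF150, a RING finger gene, 5.77 ± 0.25, 4.25 ± 0.27 and 3.65 ± 0.26. Formoterol's changes in FRZB, NLGN4X and RNF150 were 0.56, 0.42 and 0.60. That of FRZB lost its call without formoterol replicate 1 or 4 or untreated replicate 2 or 4 (0.52 to 0.53). That of NLGN4X lost it without formoterol replicate 2 (0.32), untreated replicate 4 (0.39) or all replicate 1 arrays (0.42), and that of RNF150 without all replicate 1 arrays (0.46).

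The 5 largest differences below 0 among genes moved alike include PDE7B, raised by both drugs, and 4 genes lowered by both, which the choice by a lower level with budesonide fixed to be lowered more by budesonide. JUN, a subunit of the AP-1 transcription factor, had 7.37, 7.26, 7.11 and 7.14 with budesonide, 9.48, 9.39, 9.53 and 9.49 with formoterol and 9.97, 10.04, 10.08 and 10.05 in untreated cells. All 3 groups were separate, with changes from untreated cells of -2.81 ± 0.10 and -0.56 ± 0.10 and a difference between the drugs of -2.25 ± 0.10. TNFRSF11B, the decoy receptor osteoprotegerin, averaged 5.14 ± 0.29, 8.10 ± 0.13 and 8.78 ± 0.18 with budesonide, with formoterol and in untreated cells. NPPB, the natriuretic peptide gene, averaged 4.74 ± 0.32, 7.08 ± 0.16 and 7.69 ± 0.20, and ENC1, an actin-associated kelch protein gene, 6.66 ± 0.08, 8.64 ± 0.25 and 9.15 ± 0.05. Formoterol's lowering of TNFRSF11B (-0.68) lost its call without formoterol replicate 2 or untreated replicate 4 (-0.62 each). That of NPPB (-0.61) lost it without formoterol replicate 4 (-0.57), untreated replicate 2 (-0.55) or all replicate 1 arrays (-0.67), and that of ENC1 (-0.51) with the mean of its probe sets (-0.44).

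The receptors' own genes and partners came next. NR3C1, the glucocorticoid receptor gene, had 9.71, 9.55, 9.501 and 9.43 with budesonide, 10.99, 10.98, 11.002 and 10.72 with formoterol and 10.46, 10.51, 10.74 and 10.69 in untreated cells. The drugs differed by -1.37 ± 0.08 (adjusted p 9.77e-21), all 10 of its probe sets agreed in direction, and budesonide's change from untreated cells was -1.05 ± 0.08. Formoterol's change of 0.32 ± 0.08 lost its call without formoterol replicate 3 or untreated replicate 2 (0.29 each), untreated replicate 1 (0.27) or all replicate 1 arrays (0.25). Of 12 measured genes for the receptor and its partners, 1 was higher with budesonide and 5 were lower, 50% against 16.8% over all genes. Their median was -0.14. The one that was higher was FKBP5, an immunophilin that restrains the receptor, with a difference of 2.95 ± 0.11. Of 29 genes for the beta-adrenoceptors, cyclases, protein kinase A and its anchors and inhibitors, 1 was higher and 5 were lower, 20.7% against 16.8% over all genes. AKAP12, a kinase anchor, averaged 9.80 ± 0.12 with budesonide, 10.37 ± 0.16 with formoterol and 9.20 ± 0.07 in untreated cells. PKIB, a kinase inhibitor, differed by -0.88 and the cyclase gene ADCY9 by -0.68.

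Genes known to be induced by glucocorticoids nearly all separated the drugs. Of 25 measured, 22 (88%, against 16.8% over all genes) were called higher with budesonide and the other 3 were not called. The median difference was 1.98 against 0.04 over all genes. From untreated cells 24 rose with budesonide and 6 with formoterol, 96% and 24% against 14.2% and 4.81% called over all genes. FKBP5 averaged 12.07 ± 0.05 with budesonide, 9.12 ± 0.21 with formoterol and 9.02 ± 0.17 in untreated cells. PER1 differed by 2.66 ± 0.28, the transcription factor gene KLF9 by 2.51 ± 0.14, and GLUL, glutamine synthetase, by 2.14 ± 0.10. ERRFI1, a feedback inhibitor of the EGF receptor, differed by 2.03 ± 0.12 and IRS2, an insulin receptor substrate, by 2.17 ± 0.11. NFKBIA, which encodes the NF-kappaB inhibitor IkappaBalpha, averaged 9.41 ± 0.10, 7.10 ± 0.24 and 7.10 ± 0.12.

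Some of these glucocorticoid-induced genes were raised by formoterol as well. CRISPLD2, a secreted protein gene, averaged 8.63 ± 0.08 with budesonide, 8.34 ± 0.48 with formoterol and 5.39 ± 0.19 in untreated cells, and CEBPD, a C/EBP transcription factor gene, 9.85 ± 0.04, 9.68 ± 0.38 and 8.30 ± 0.31. Neither was called between the drugs, with 95% intervals of the difference of -0.24 to 0.83 and -0.19 to 0.54. DUSP1, the phosphatase that switches off MAP kinases, averaged 10.49 ± 0.06, 9.30 ± 0.05 and 8.46 ± 0.15, and DDIT4, an mTOR inhibitor gene, 10.06 ± 0.15, 8.90 ± 0.24 and 7.68 ± 0.18. Formoterol's change in DUSP1 of 0.84 lost its call with the mean of its probe sets (0.59). SGK1, a kinase that controls ion channels, differed by 0.56 ± 0.12 between the drugs, the least of the differences called among these genes. The members of this list were chosen with results of these data known, so their direction is not independent evidence.

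Genes known as cAMP and CREB targets leaned the other way, with exceptions. Of 23 measured, 3 were higher with budesonide and 11 lower, 60.9% against 16.8% over all genes, with a median of -0.61. Formoterol raised 10 of them from untreated cells, 43.5% against 4.81% called over all genes. NR4A3, an orphan nuclear receptor gene, averaged 4.05 ± 0.27 with budesonide, 6.13 ± 0.28 with formoterol and 4.19 ± 0.16 in untreated cells. PDE4D differed by -1.86 ± 0.14, 6 of its 7 probe sets running this way. SCG2, the granin secretogranin II, was not told from background with budesonide (2.76 ± 0.21) and averaged 5.27 ± 0.25 with formoterol, and BDNF, a neurotrophin gene, differed by -0.84 ± 0.13. CREM, whose short product ICER represses cAMP targets, differed by -0.61 ± 0.11. The lower members were not all raised by formoterol. GEM, a GTPase gene, averaged 3.02 ± 0.23 with budesonide, at background, against 5.41 ± 0.23 with formoterol and 5.60 ± 0.26 in untreated cells. IL6, an inflammatory cytokine, averaged 3.94 ± 0.26, 5.84 ± 0.22 and 5.81 ± 0.36.

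The 3 cAMP targets higher with budesonide were RGS2, PTGS2 and CITED2. RGS2, which speeds the shut-off of Gq signalling, had 9.51, 9.52, 9.29 and 9.33 with budesonide, 8.61, 8.69, 8.46 and 8.52 with formoterol and 7.46, 7.25, 7.28 and 7.07 in untreated cells. Both drugs raised it, and with both together it averaged 11.80 ± 0.11, above each drug alone by 2.38 ± 0.11 and 3.22 ± 0.11. PTGS2, the inducible cyclooxygenase gene, averaged 4.54 ± 0.31 with budesonide and was at background with formoterol (2.77 ± 0.23) and in untreated cells (2.39 ± 0.40). CITED2, a transcriptional co-regulator gene, differed by 0.49.

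Of 14 cAMP phosphodiesterase genes, 5 (35.7%, against 16.8% over all genes) were lower with budesonide and the other 9 were not called. Besides PDE4B, PDE4D and PDE7B these were PDE8A and PDE8B, which differed by -0.61 ± 0.07 and -0.80 ± 0.16. Of 11 genes for CREB factors, their coactivators and the SIK kinases that restrain them, 4 were lower and the other 7 were not called. That is 36.4% against 16.8% over all genes. CREB5 had 5.22, 4.62, 4.26 and 4.40 with budesonide, 7.86, 7.79, 7.71 and 6.90 with formoterol and 6.47, 6.504, 6.11 and 5.94 in untreated cells. Formoterol replicate 4 was the lowest of its group but still above every untreated array, and the drugs differed by -2.94 ± 0.22. SIK2 differed by -0.40 ± 0.10, with 5 of its 6 probe sets in this direction.

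**Figure D4:**
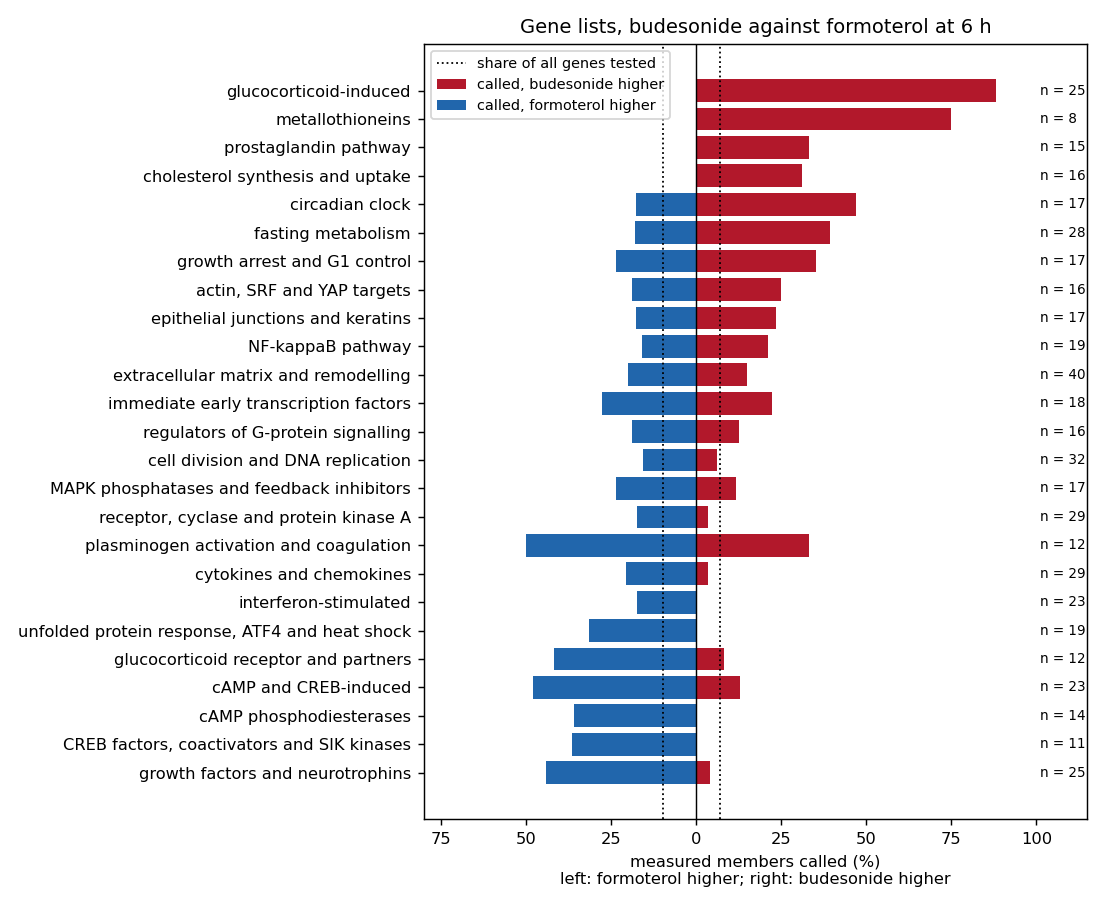
Share of the measured members of 25 gene lists called between the drugs at 6 h (x axis, percent), with genes higher with budesonide to the right and genes higher with formoterol to the left. Dotted lines mark the shares over all genes tested, 7.15% and 9.63%, and the glucocorticoid-induced list reaches 22 of 25.

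Inflammatory mediators differed in a few strong members. Of 29 cytokines and chemokines, 1 was higher with budesonide and 6 lower, 24.1% against 16.8% over all genes, while the median of the list was 0.05. Many members were dim, with 12 under the lower quartile in every 6 h group and 10 reaching the median of all probe sets in one. The median of the list and the 22 members not called therefore do not show equal levels with both drugs. CCL2, IL11 and IL6 have been described. IL15, which sustains lymphocytes, had 6.94, 6.997, 6.75 and 7.13 with budesonide, 8.52, 8.67, 8.45 and 8.41 with formoterol and 7.05, 7.23, 6.97 and 6.96 in untreated cells, and only formoterol stood apart, the drugs differing by -1.56 ± 0.11. CCL7, a monocyte chemokine, reached 4.11 ± 0.10 with formoterol and was at background with budesonide (2.77 ± 0.19) and in untreated cells (2.99 ± 0.23). LIF differed by -0.76 ± 0.16, with 2 of its 3 probe sets in this direction, and lost its call with their mean (-0.21). TSLP, an epithelial alarmin of asthma, was the one called higher with budesonide, with 4.08, 4.70, 3.49 and 4.32, against 3.49, 3.76, 3.41 and 3.28 with formoterol. The arrays overlapped, and the difference of 0.66 ± 0.19 (adjusted p 0.0104) lost its call without budesonide replicate 2 (0.48) or all replicate 1 arrays (0.69).

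In the NF-kappaB list of 19, 4 were higher with budesonide and 3 lower, 36.8% against 16.8% over all genes. TNFAIP3, the A20 protein that dampens NF-kappaB, differed by 1.30 ± 0.15, and the co-regulator BCL3 by -1.01 ± 0.18, though 3 of the 4 BCL3 probe sets ran the other way and their mean (-0.13) was not called. Of 23 interferon-stimulated genes, 4 were lower and the other 19 were not called, 17.4% and so near the 16.8% over all genes, with a median of -0.45. ISG20, an exonuclease gene, had 5.46, 5.38, 5.02 and 5.47 with budesonide, 7.65, 7.65, 7.65 and 7.58 with formoterol and 5.77, 5.61, 5.27 and 5.55 in untreated cells. It rose with formoterol, while IFIT2, an RNA-binding antiviral gene, and the transcription factor IRF1 were lowered by budesonide. IFIT2 averaged 5.37 ± 0.24, 6.91 ± 0.29 and 6.61 ± 0.26 with budesonide, with formoterol and in untreated cells, and IRF1 differed by -0.93 ± 0.11 between the drugs.

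Among 15 genes of the prostaglandin pathway, 5 (33.3%, against 16.8% over all genes) were higher with budesonide and the other 10 were not called. Besides PLA2G4A and PTGS2 these included the prostaglandin E2 receptors PTGER2 and PTGER4, which couple to cyclic AMP. PTGER2 averaged 5.76 ± 0.21 with budesonide, 4.18 ± 0.20 with formoterol and 4.09 ± 0.28 in untreated cells, and PTGER4 averaged 8.58 ± 0.12, 7.29 ± 0.15 and 7.05 ± 0.24. By limma 0 of the 15 were called for formoterol against untreated cells, and 1 passed at an unadjusted p under 0.05. Over all genes 4.81% were called in that comparison.

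Immediate early transcription factors split, with 4 of 18 higher with budesonide and 5 lower, 50% against 16.8% over all genes. KLF4 averaged 5.70 ± 0.35 with budesonide, 4.05 ± 0.14 with formoterol and 3.87 ± 0.20 in untreated cells. FOSL1, an AP-1 subunit, averaged 4.90 ± 0.26, 6.31 ± 0.17 and 6.81 ± 0.21. EGR1, a growth factor-induced zinc finger gene, was called higher with budesonide by 0.67 ± 0.19, but the arrays overlapped and the call was lost without formoterol replicate 4 (0.54) or all replicate 1 arrays (0.60). From untreated cells EGR1 changed by -1.10 ± 0.19 with formoterol, which was called, and by -0.43 ± 0.19 with budesonide, which was not. Of 17 MAP kinase phosphatases and feedback inhibitors, 2 were higher (DUSP1 and ERRFI1) and 4 lower, 35.3% against 16.8% over all genes. The lower ones included DUSP6 (-0.87) and DUSP4 (-0.66). Of 16 regulators of G-protein signalling, 2 were higher and 3 lower, 31.2% against 16.8% over all genes. RGS3 differed by -1.42 ± 0.09 with 3 of 4 probe sets in this direction.

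Metabolic genes were mostly higher with budesonide where they differed. Of 28 genes of the fasting response, 11 were higher and 5 lower, 57.1% against 16.8% over all genes. FOXO1, a transcription factor of fasting, averaged 9.47 ± 0.16 with budesonide, 6.77 ± 0.13 with formoterol and 6.58 ± 0.18 in untreated cells. ACSL1, which activates fatty acids, averaged 10.49 ± 0.10, 8.17 ± 0.19 and 8.26 ± 0.10, and KLF15, a regulator of amino acid breakdown, differed by 1.71 ± 0.14. On the other side LPL, lipoprotein lipase, had 4.67, 4.31, 3.96 and 4.82 with budesonide, 7.36, 6.49, 6.84 and 7.59 with formoterol and 4.68, 4.36, 4.46 and 4.66 in untreated cells. It rose with formoterol, while budesonide overlapped untreated cells, and the drugs differed by -2.63 ± 0.18. ARRDC4, an arrestin-like gene that responds to glucose, differed by -1.72 ± 0.13, and the hexokinase gene HK2 by -1.35 ± 0.16 in 1 of its 2 probe sets.

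Of 8 metallothioneins, which bind zinc and copper, 6 were higher with budesonide and the other 2 were not called. That is 75% against 16.8% over all genes, and the median was 0.93. MT1X, MT1E and MT2A differed by 3.16 ± 0.15, 2.12 ± 0.11 and 1.09 ± 0.06. By limma 0 of the 8 were called with formoterol against untreated cells, with 0 at an unadjusted p under 0.05. Over all genes 4.81% were called in that comparison. In the clock list of 17, 8 were higher and 3 lower, 64.7% against 16.8% over all genes. NPAS2 averaged 7.27 ± 0.17 with budesonide, 5.39 ± 0.17 with formoterol and 5.47 ± 0.17 in untreated cells. Its paralogue CLOCK differed by -0.80 ± 0.16 (1 of 2 probe sets), their partner BMAL1 by -0.65 ± 0.11 and the repressor CRY1 by -0.77 ± 0.11. PER2 differed by 0.87 ± 0.16, although its arrays overlapped and 3 of its 5 probe sets had this direction, with their mean (0.18) not called.

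Of 16 genes of cholesterol synthesis and uptake, 5 (31.2%, against 16.8% over all genes) were higher with budesonide and the other 11 were not called. Against untreated cells 6 were lower with budesonide and 12 with formoterol, and the rest were not called. These are 37.5% and 75%, where 14.2% and 4.81% of all genes were called. MVK, mevalonate kinase, had 7.42, 7.20, 7.24 and 7.09 with budesonide, 6.71, 6.69, 6.43 and 6.68 with formoterol and 7.38, 7.33, 7.25 and 7.24 in untreated cells, so budesonide overlapped untreated cells and formoterol lay below both. NSDHL, a sterol dehydrogenase gene, averaged 9.56 ± 0.07, 8.99 ± 0.13 and 9.505 ± 0.09, and SQLE, squalene epoxidase, differed by 0.34 ± 0.08. MSMO1, a sterol oxidase gene, was lower with both drugs, and its difference of 0.20 ± 0.06 between them lost its call without formoterol replicate 1 (0.18), formoterol replicate 2 (0.17) or all replicate 1 arrays (0.18) and with the mean of its probe sets (0.32), which also ended the call with budesonide against untreated cells (-0.31).

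Growth factors that were called were mostly lower with budesonide. Of 25 measured, 1 was higher, 11 were lower and 13 were not called, so 48% were called against 16.8% over all genes. From untreated cells 11 fell with budesonide and 7 with formoterol, where 8.12% and 2.06% of all genes fell. FGF5 averaged 4.01 ± 0.35 with budesonide, 5.24 ± 0.15 with formoterol and 6.62 ± 0.11 in untreated cells, and HBEGF, a ligand of the EGF receptor, 5.36 ± 0.30, 6.47 ± 0.21 and 7.19 ± 0.25. BMP4 differed by -1.05 ± 0.10 and VEGFA, the angiogenic factor, by -0.93 ± 0.14 with 7 of 10 probe sets in this direction. BMP6 differed by -1.10 ± 0.15 between the drugs. GDF15, a stress-induced member of the TGF-beta family, differed by -0.66 ± 0.15, and the call was lost without all replicate 1 arrays (-0.42). STC2, a glycoprotein hormone, was the one that was higher, at 9.88 ± 0.12 with budesonide, 8.59 ± 0.17 with formoterol and 9.09 ± 0.10 in untreated cells.

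The plasminogen and coagulation list differed in nearly every member, 4 of 12 higher with budesonide and 6 lower, 83.3% against 16.8% over all genes. PLAT, tissue plasminogen activator, averaged 10.31 ± 0.09 with budesonide, 8.93 ± 0.14 with formoterol and 8.58 ± 0.17 in untreated cells. THBD, the anticoagulant receptor thrombomodulin, averaged 6.38 ± 0.26, 4.78 ± 0.16 and 4.89 ± 0.30. In the other direction F3, tissue factor, which starts coagulation, had 8.99, 8.76, 8.30 and 8.08 with budesonide, 10.36, 9.997, 10.16 and 10.02 with formoterol and 11.49, 11.63, 11.34 and 11.15 in untreated cells. Both drugs lowered F3, budesonide by more, with a difference of -1.60 ± 0.17. TFPI2, a protease inhibitor gene, averaged 6.67 ± 0.16, 8.67 ± 0.28 and 7.22 ± 0.22, the urokinase receptor PLAUR 5.61 ± 0.17, 6.74 ± 0.15 and 6.63 ± 0.09, and urokinase itself, PLAU, differed by -0.84 ± 0.11.

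Of 40 matrix and remodelling genes, 6 were higher with budesonide and 8 lower, 35% against 16.8% over all genes. COL8A1, a short-chain collagen, averaged 11.15 ± 0.20 with budesonide, 9.90 ± 0.49 with formoterol and 9.94 ± 0.32 in untreated cells. COL3A1, also a fibroblast marker, averaged 4.57 ± 0.33, 6.22 ± 0.35 and 5.19 ± 0.37, and ADAMTS5, an aggrecanase, 8.01 ± 0.18, 9.59 ± 0.21 and 10.13 ± 0.14. In the actin, SRF and YAP list of 16, 4 were higher and 3 lower, 43.8% against 16.8% over all genes. VCL, vinculin, which ties actin to adhesions, averaged 12.43 ± 0.05, 10.56 ± 0.08 and 11.03 ± 0.14, and CCN2, connective tissue growth factor, 11.68 ± 0.13, 10.64 ± 0.17 and 11.03 ± 0.22. Among 17 junction and keratin genes, 4 were higher and 3 lower, 41.2% against 16.8% over all genes. CLDN1, a tight junction claudin, differed by -1.30 ± 0.16, KRT80 by -1.54 ± 0.15 and the desmosomal plakophilin PKP2 by 0.96 ± 0.18.

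Of 17 genes of growth arrest and G1 control, 6 were higher with budesonide and 4 lower, 58.8% against 16.8% over all genes. Of 32 genes of cell division and DNA replication 2 were higher and 5 lower, 21.9% against 16.8% over all genes. GADD45A, a stress-induced arrest gene, had 11.07, 11.27, 11.11 and 11.13 with budesonide, 9.49, 9.57, 9.60 and 9.63 with formoterol and 10.02, 10.25, 10.26 and 10.17 in untreated cells, with untreated cells between the drugs. GAS1, a growth arrest gene, averaged 11.82 ± 0.07, 10.40 ± 0.29 and 8.98 ± 0.24, and CCND1, cyclin D1, 6.72 ± 0.08, 7.75 ± 0.22 and 8.87 ± 0.27. RRM2, a subunit of ribonucleotide reductase, differed by -0.69 ± 0.08. Of 19 genes of the unfolded protein and heat shock responses, 6 were lower and the other 13 were not called. That is 31.6% against 16.8% over all genes. SLC7A11, the cystine transporter, averaged 7.47 ± 0.35 with budesonide, 9.09 ± 0.24 with formoterol and 8.29 ± 0.28 in untreated cells. HSPH1, a heat shock protein gene, differed by -0.97 ± 0.11 and the chaperone HSPA5 by -0.55 ± 0.07.

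The separation of the drugs was placed in time with the same comparison on the arrays of the other time points, which share no array with 6 h. The drugs differed in 353 genes at 1 h (1.95%), 1102 at 2 h (6.08%) and 2794 at 18 h (15.4%). Of the 425 genes called at 2-fold or more at 6 h, 119 (28%) were called in the same direction at 1 h, 254 (59.8%) at 2 h and 364 (85.6%) at 18 h, and 1, 1 and 3 in the opposite one. Among those 192 higher with budesonide at 6 h, the median difference was 0.15 at 1 h, 0.68 at 2 h, 1.52 at 6 h and 1.21 at 18 h. For the 233 that were lower it was -0.25, -0.60, -1.37 and -0.96. Since the genes were chosen at 6 h, the 6 h medians are a description. Across these 425 genes, which are not independent of each other, the 6 h difference had Pearson correlations of 0.59 with 1 h, 0.76 with 2 h and 0.88 with 18 h. The choice of large 6 h differences in both directions raises such correlations. Across the 3044 genes called at 6 h, which are also a choice, they were 0.52, 0.69 and 0.79.

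The leading genes separated on different schedules. IL11 and LINC00473 were apart from 1 h on, IL11 by -4.65 at 1 h, -6.10 at 2 h, -4.33 at 6 h and -3.16 at 18 h, and LINC00473 by -3.54, -4.89, -4.38 and -2.85. TSC22D3 differed by 3.70, 4.76, 5.51 and 4.80 at the same times. EPHA5 and MAP2 were not called between the drugs at 1 or 2 h, with EPHA5 at -0.27, 0.11, -3.89 and -2.52 and MAP2 at -0.04, 0.05, 3.80 and 5.19. Over all genes the difference between the drugs changed with time in 1116 (6.15%) for 6 h minus 2 h and in 1353 (7.46%) for 6 h minus 18 h. The leading genes were chosen for their 6 h difference, so their own changes are descriptions and nothing is read from how many passed. MAP2 was further apart at 18 h than at 6 h, with 6 h minus 18 h of -1.40 ± 0.23, while DIO2 was closer, with -1.97 ± 0.32. For 5 genes of the lists, chosen after their values were seen, the same change was looked at. NR4A3 and IL6, of the cAMP list, were further apart at 2 h than at 6 h, by 4.67 ± 0.22 and 3.10 ± 0.27 as 6 h minus 2 h, with NR4A3 at -5.60, -6.76, -2.08 and -0.78 and IL6 at -5.62, -5.01, -1.90 and -1.999. RGS2 and SGK1 were lower with budesonide than with formoterol at 1 and 2 h and higher at 6 h, with 6 h minus 2 h of 2.14 ± 0.15 and 1.25 ± 0.16. RGS2 differed by -2.15, -1.30, 0.84 and 0.51, and SGK1 by -1.16, -0.69, 0.56 and 0.69. PLAT was higher with budesonide up to 6 h and lower at 18 h, at 0.72, 0.99, 1.38 and -1.11, with 6 h minus 18 h of 2.49 ± 0.16. CRISPLD2, which was not called between the drugs at 6 h, differed by -1.15, -1.62, 0.29 and 1.46.

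**Figure D5:**
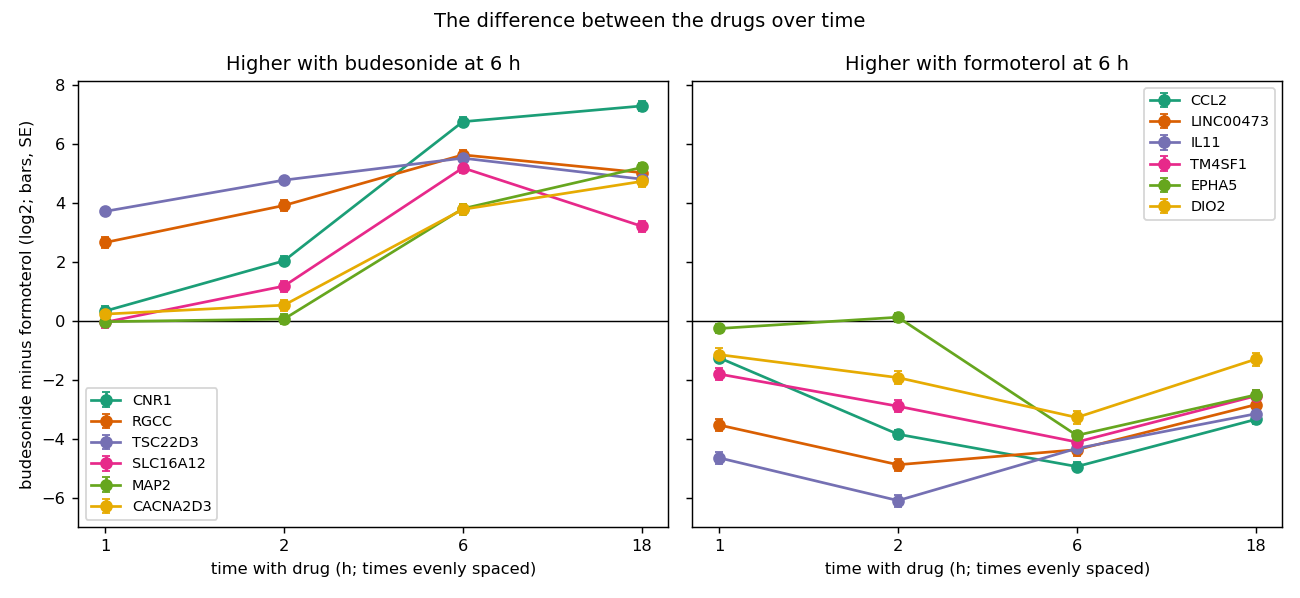
Difference between budesonide and formoterol (y axis, log2, bars SE) at 1, 2, 6 and 18 h (x axis, evenly spaced) for the first 6 genes higher with budesonide at 6 h and the first 6 lower. CNR1 climbs from 0.33 at 1 h to 7.28 at 18 h, and IL11 is widest at 2 h with -6.10.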

How the data were processed

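RNA from 64 cultures of BEAS-2B was hybridised to Affymetrix arrays, and the authors deposited a log2 value for each probe set, made with RMA according to the submitters' processing notes. RMA subtracts background, equalises the arrays and condenses the probes of a set. The sources used here give neither its version nor whether the arrays were handled jointly, and joint normalization would hide a change shared by most genes. An array has no read depth, so precision depends on how many there are. No 2 arrays held identical values.

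Of 49395 probe sets, 44994 had 1 gene symbol in the platform annotation, 1832 had several and 2569 none, and these last 2 kinds were left out. Each of the 18132 genes was represented by its brightest probe set on average, and 11735 had more than 1. A linear model in limma 3.58.1 (R 4.3.3, with the data.table package at 1.17.8) held 16 group means over 64 arrays, with 48 residual degrees of freedom and an intensity trend in the empirical Bayes step. It was tested on simulated data. Calls were two-sided at a Benjamini-Hochberg adjusted p under 0.05 within a contrast. Plots used matplotlib 3.10.9, Python 3.11.15, numpy 2.4.6 and pandas 2.3.3.

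Genes were named by a rule. Called genes with a difference of at least 2-fold, no overlap between the arrays of the drugs and a higher mean at or above 4.90 gave the 12 highest and 12 lowest differences, the 8 largest opposed differences in each direction and the 5 largest in each direction among genes moved alike. Members of 25 gene lists and 5 marker lists, and NR3C1, could be named too. The rule, members and lists were chosen with earlier results of these data known, and the background level of 3.02 was set with the data seen. Of the 131 genes named by the rule or as list members with values in every group, 103 had several probe sets, which ran in one direction for 89. Promoters came from RefSeq, GRCh38.p14. The alternatives tried were a replicate block, array centring, repeated quantile normalization, dim genes left out, no trend, the mean of probe sets, the 12 compared arrays alone and arrays left out.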

Additional observations from a re-analysis of the deposited data

Results flagged for a closer look

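For the first 6 genes of each direction the difference between budesonide and formoterol at 6 h was set against 2 h and 18 h. These genes were chosen for their 6 h difference, so the values that passed the test are descriptions. As 6 h minus 2 h, the difference moved by 4.72 for CNR1, 1.71 for RGCC, 0.75 for TSC22D3, 4.01 for SLC16A12, 3.74 for MAP2 and 3.25 for CACNA2D3. Among genes lower with budesonide it moved by -1.09 for CCL2, 1.77 for IL11, -1.21 for TM4SF1, -4.01 for EPHA5 and -1.35 for DIO2, so IL11 was further apart at 2 h and the others at 6 h. As 6 h minus 18 h, it moved by 0.71 for TSC22D3, 1.98 for SLC16A12, -1.40 for MAP2, -0.95 for CACNA2D3, -1.60 for CCL2, -1.53 for LINC00473, -1.17 for IL11, -1.56 for TM4SF1, -1.37 for EPHA5 and -1.97 for DIO2. MAP2 and CACNA2D3 were thus further apart at 18 h and the others of these at 6 h. Of 5 genes chosen after their values were seen, 6 h minus 2 h was 4.67 for NR4A3, 3.10 for IL6, 2.14 for RGS2 and 1.25 for SGK1, and 6 h minus 18 h was -1.30 for NR4A3 and 2.49 for PLAT. SGK1 and RGS2 were thus lower with budesonide at 2 h and higher at 6 h, and PLAT was higher at 6 h and lower at 18 h.

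In 20 of 393 groups of 4 arrays, 1 array stood far from the other 3, where chance gives about 1 in 20. With budesonide these were PDE8B in replicate 2 (5.44, low), HSPA5 in replicate 3 (11.76, high) and, in replicate 1, ADCY9 (6.47, high) and BCL3 (4.51, low). With formoterol, replicate 2 was high for KLF9 (7.68), CREM (8.13) and MT2A (12.83) and low for HSPA5 (12.03). Formoterol replicate 3 was low for MVK (6.43) and high for BMP4 (8.49), and replicate 4 was low for NR3C1 (10.72), CREB5 (6.90), AKAP12 (10.13), ISG20 (7.58) and PKIB (3.80). In untreated cells replicate 1 was high for PLAU (8.85), replicate 3 was high for ANKRD1 (7.09) and low for GAS1 (8.61), and replicate 4 was low for AKAP12 (9.10) and HBEGF (6.81).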

How the results depend on the processing

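Each alternative was applied to the 3 comparisons at 6 h. Leaving out 1 array or all replicate 1 arrays gave 2603 to 3099 calls for budesonide against formoterol (3044 with all arrays) and 417 to 440 at 2-fold or more (425). For budesonide against untreated cells the ranges were 2221 to 2623 (2583) and 384 to 415 (398), and for formoterol 674 to 919 (873) and 101 to 108 (104). Averaging every probe set of a gene gave fewer 2-fold calls, 277 between the drugs, 248 for budesonide and 61 for formoterol. With the replicate number within each time as a block the calls were 4648, 4081 and 1910, and with the number as a replicate block over all arrays 3894, 3390 and 1360. What arrays of one number have in common is not in the labels. Deviations of same-numbered arrays from their group means correlated by -0.02 to 0.30 between budesonide and formoterol. Between budesonide and untreated cells it was 0.09 to 0.41, and between formoterol and untreated cells 0.08 to 0.34. Of the 4 budesonide and 4 formoterol arrays, 3 and 3 correlated best with their own number. For budesonide and untreated cells it was 4 and 4, and for formoterol and untreated cells 3 and 3. Same-numbered arrays thus mostly deviated together, but replicate 2 did not between budesonide and formoterol (-0.02). For that reason the main model left the numbers out, and the counts in the results are those without a block. Among the 397 genes, classes by the calls against untreated cells, recomputed after seeing the data, moved as well. With the block within time 132 were opposed, 69 moved alike, 172 were called with budesonide alone and 24 with formoterol alone (92, 37, 233 and 34 without it), and 109 of the 132 had the combination nearer to budesonide. With the replicate block over all arrays 118 were opposed and with the mean of probe sets 75. Leaving out arrays gave 68 opposed without all replicate 1 arrays and 79 to 91 otherwise. The other settings gave 2632 to 3032 calls between the drugs and 408 to 426 at 2-fold.

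For the 131 named genes, the difference between the drugs kept its direction in all 2747 gene and setting pairs and its side of the threshold in 2734. The 7 genes that lost the call somewhere were BCL3, EGR1, GDF15, LIF, MSMO1, PER2 and TSLP, and with the mean of all probe sets BCL3 came to -0.13, LIF to -0.21 and PER2 to 0.18. For formoterol against untreated cells 18 genes lost a call somewhere and for budesonide 8. Without formoterol replicate 1, 2 or 3 or untreated replicate 1 or 4, CCN2 lost its call for formoterol (-0.37 to -0.32). CCN2 also lost it without all replicate 1 arrays (-0.29). With the mean of all probe sets formoterol also lost ADCY9 (0.19), ARRDC4 (0.33) and HBEGF (-0.39). ADCY9 lost its call for formoterol in 9 settings, among them the 12 compared arrays alone (0.34) and repeated quantile normalization (0.32). BMP6 lost its call for formoterol without formoterol replicate 1 or 4 or untreated replicate 2, 3 or 4 (0.42 to 0.50). It also did so with the 12 compared arrays alone (0.51) and without all replicate 1 arrays (0.55). The cause was not tested.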
